A study of Mus musculus with 24 samples.

Results

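Dbp, Tef, Hlf and Nfil3 encode the transcription factors that act at the D-box, a short DNA element of clock-controlled promoters. The 4 genes were taken by their symbol on the array platform, a rule that uses no measured value, from 19938 genes with a probe set of a single symbol. Each was measured by 1 probe set over all 24 time points: Dbp (Entrez 13170, chromosome 7, probe set 10553092), Tef (21685, chromosome 15, 10425601), Hlf (217082, chromosome 11, 10389786) and Nfil3 (18030, chromosome 13, 10409278). The tissue was the SCN (suprachiasmatic nucleus), a pair of small hypothalamic nuclei that set daily timing in mammals, and the mice were C57/BL6. The mice had been entrained to a light-dark cycle and were in constant darkness at collection, so time is circadian time (CT). Sampling ran from CT 18 to CT 64 in steps of 2 h, with 1 array per time and the RNA of 3 mice pooled on each. The 12 arrays from CT 18 to CT 40 are called the first cycle and the 12 from CT 42 to CT 64 the second, and both cover the same circadian times from 0 to 22 h. No allele, drug or other treatment is given for any mouse, and all arrays share strain and lighting. Whole dissected tissue was measured, so fewer cells of a type and less RNA per cell cannot be told apart.

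DBP, TEF and HLF are the PAR bZIP proteins, which bind the D-box as dimers and activate transcription. NFIL3, also called E4BP4, is a bZIP protein that binds the same element and represses it. In the textbook scheme CLOCK and ARNTL drive Dbp through E-boxes, REV-ERB proteins (Nr1d1, Nr1d2) repress Nfil3 through ROR elements, and the D-box factors in turn act on Period and other clock genes. The activators and the repressor are known to cycle in opposite phase in several tissues, liver among them.

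Sequence upstream of each start site is shown because these 4 genes rise and fall with the clock, and the windows show which of the clock's known elements lie there. Sequences are from RefSeq on GRCm38.p6, run 5′ to 3′ on the gene's strand and cover the 250 bases before the start, or for Dbp a part of them. All 4 genes matched, with 5 windows in all. Capitals mark a match to a searched motif on either strand, namely the E-box CACGTG, its variant CACGTT, the D-box TTANGNAA, the ROR element core TAGGTCA, the nuclear receptor half-site AGGTCA that lies inside it, and the cAMP response element TGACGTCA.
Tef, first start, chr15:81802423-81802672, plus strand: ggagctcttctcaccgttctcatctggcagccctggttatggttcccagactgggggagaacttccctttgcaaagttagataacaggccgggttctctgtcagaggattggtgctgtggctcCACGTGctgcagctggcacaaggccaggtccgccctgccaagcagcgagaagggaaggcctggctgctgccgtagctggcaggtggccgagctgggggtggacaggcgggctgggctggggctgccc
Tef, second start, chr15:81811164-81811413, plus strand: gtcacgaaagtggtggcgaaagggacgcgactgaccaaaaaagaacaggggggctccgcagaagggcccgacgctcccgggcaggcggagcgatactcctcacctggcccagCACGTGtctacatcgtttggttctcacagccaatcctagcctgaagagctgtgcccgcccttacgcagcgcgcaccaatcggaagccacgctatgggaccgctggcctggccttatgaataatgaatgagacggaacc
Hlf, chr11:90390918-90391167, minus strand: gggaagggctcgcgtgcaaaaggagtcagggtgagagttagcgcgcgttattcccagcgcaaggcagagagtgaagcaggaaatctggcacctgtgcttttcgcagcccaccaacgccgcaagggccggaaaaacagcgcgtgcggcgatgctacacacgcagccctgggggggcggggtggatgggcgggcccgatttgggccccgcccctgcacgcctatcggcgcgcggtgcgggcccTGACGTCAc
Nfil3, chr13:52981040-52981289, minus strand: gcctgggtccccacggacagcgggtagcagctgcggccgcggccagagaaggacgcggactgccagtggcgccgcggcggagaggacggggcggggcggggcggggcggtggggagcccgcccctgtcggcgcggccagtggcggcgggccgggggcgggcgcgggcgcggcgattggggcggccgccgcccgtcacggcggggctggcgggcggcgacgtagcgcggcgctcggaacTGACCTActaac
Dbp, chr7:45704997-45705099, plus strand: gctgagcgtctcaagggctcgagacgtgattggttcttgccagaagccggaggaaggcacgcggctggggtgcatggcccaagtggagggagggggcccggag
Both Tef windows hold 1 E-box, at bases -127 to -122 of the first start and -138 to -133 of the second. CACGTG occurs in 6.02% of the 32851 windows of 250 bases in the table. The Hlf window holds TGACGTCA at bases -9 to -2, a motif found in 1.55% of windows. The Nfil3 window holds TGACCTA, the reverse complement of the ROR element core, at bases -12 to -6; that core occurs in 2.23% of windows and the half-site in 4607 of the 32851. No searched motif was found in the 250 bases before the Dbp start. Of these, bases -250 to -148 are printed, which end just before the first base of the RefSeq gene, while the 147 bases nearest to the start lie inside the gene's span and are not printed. CACGTT (3.85% of windows) and TTANGNAA (10.3%) matched in none of the 5 windows. The second Tef window and the Nfil3 window lie inside the span of their genes. The motifs were chosen after the sequences had been seen, a match is no evidence of binding, and the absence of a match covers these windows only.

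The first question was how each factor moves over the day without light. All 4 members were called for a 24-h rhythm, against 7.65% of the 13956 genes tested (1067 genes). The test was limma's moderated F test of a 24-h cosine and sine, with Benjamini-Hochberg adjustment over all tested genes and a threshold of 0.05. Amplitudes are log2 units of intensity from mean to peak, errors are standard errors of the fit over 24 arrays, and peak times are hours of circadian time. The 3 activators peaked in the subjective day and Nfil3 in the subjective night. Amplitudes of different probe sets also depend on how each probe set responds, so their order is that of these probe sets.

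**Figure D1:**
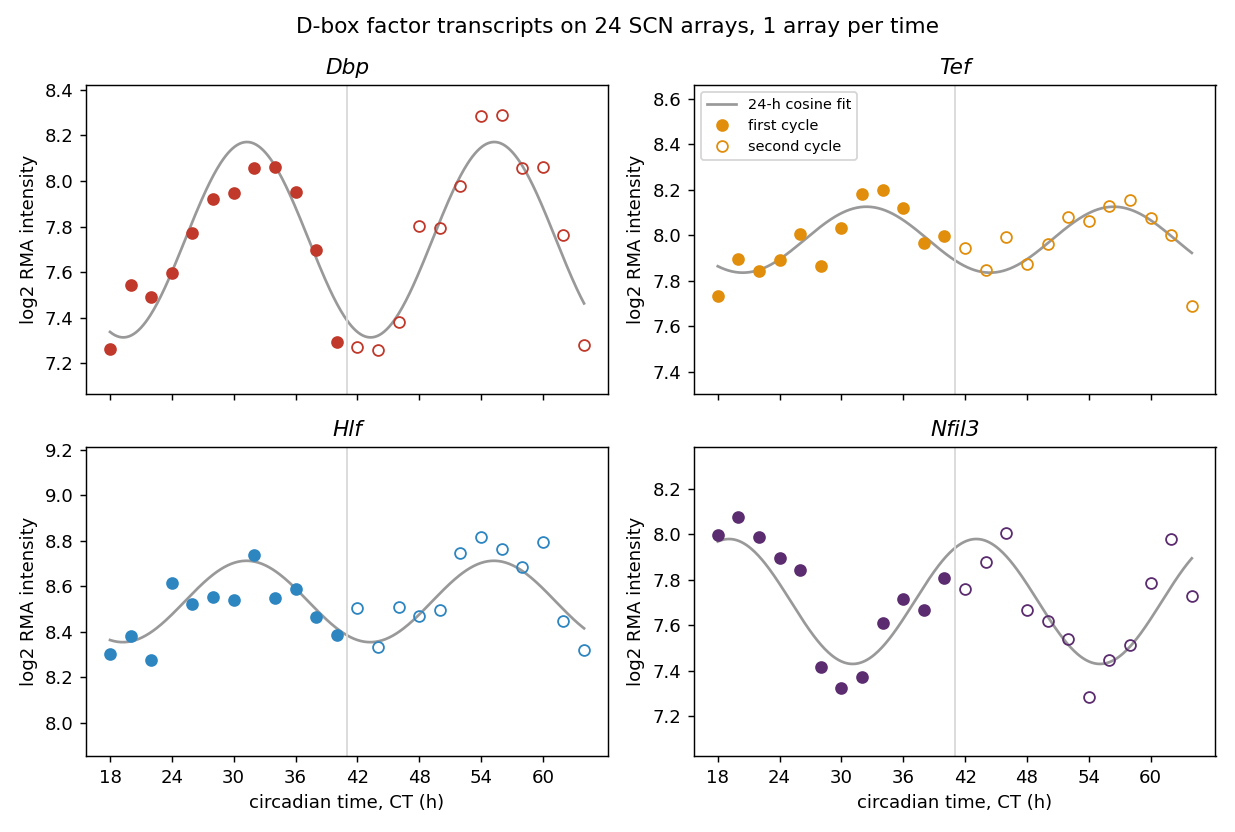
Log2 intensity of Dbp, Tef, Hlf and Nfil3 on each of the 24 arrays against circadian time in hours (filled points, first cycle; open points, second cycle), with the fitted 24-h cosine as a grey line. Dbp runs from 7.26 to 8.29 with troughs at CT 18 and CT 44, and Nfil3 runs the opposite way with troughs at CT 30 and CT 54.

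Dbp, the most strongly clock-driven of the PAR bZIP genes in many tissues, was lowest at log2 7.26 (CT 44), had a cycle median of 7.73 in the first cycle and 7.80 in the second, and was highest at 8.29 (CT 56). Its fitted amplitude was 0.43 ± 0.04, a 1.81-fold change from trough to peak, with the peak at 7.29 ± 0.32 h (limma, adjusted p = 3.95e-08). The 24-h cosine took up 87.2% of its variance over the arrays. On the 10 arrays at circadian 4 to 12 h its log2 value lay between 7.92 and 8.29 (median 8.06), and on the 8 arrays at 16 to 22 h between 7.26 and 7.54 (median 7.29). These windows of time were set after the values had been seen and leave out 0, 2 and 14 h. For Dbp they did not overlap. Windows set in this way favour such a gap, so it is only a description. The share of all genes for which this holds was not counted. The fall was steep in both cycles. Dbp went from 7.95 at CT 36 to 7.70 at CT 38 and 7.29 at CT 40 in the first cycle. In the second it went from 8.06 at CT 60 to 7.76 at CT 62 and 7.28 at CT 64. The arrays at CT 40, CT 62 and CT 64 stood apart in spread and background (values at the end of the results). The largest falls between neighbouring arrays ended at CT 40 (-0.40) and CT 64 (-0.48). Values at CT 18 (7.26), CT 42 (7.27) and CT 44 (7.26) were also low. Whether the arrays that stood apart added to the steepness was not tested. Single steps of the rise were less alike: from CT 46 to CT 48 Dbp rose by 0.42 in log2 value, while from CT 22 to CT 24 it rose by 0.11. The largest rise between neighbouring arrays of the first cycle was 0.28, from CT 18 to CT 20. Each step rests on single arrays, whose SD was 0.12 (given below), and the difference between cycles was not tested.

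Hlf, the PAR bZIP gene better known from a leukaemia fusion and from liver and brain, moved with Dbp but over a smaller range. Its lowest array was CT 22 (8.28) and its highest CT 54 (8.82), with medians of 8.53 in the first cycle and 8.51 in the second. The amplitude was 0.18 ± 0.03 (1.28-fold) with a peak at 7.25 ± 0.66 h (limma, adjusted p = 0.00263), and the cosine took up 64.5% of the variance. At 4 to 12 h the 10 arrays lay between 8.54 and 8.82 (median 8.71). At 16 to 22 h the 8 arrays lay between 8.28 and 8.51 (median 8.36). The lowest at 4 to 12 h was CT 30 (8.54) and the highest at 16 to 22 h was CT 46 (8.51). These lay closer than the SD of an array (0.10, given below). Hlf was higher in the second cycle at 7 of the 12 circadian times, by up to 0.28 at 6 h.

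Tef, the third PAR bZIP activator, first described in the embryonic pituitary, had the smallest amplitude of the 4. Its lowest array was CT 64 (7.69), its highest CT 34 (8.20), and its median was 7.98 in the first cycle and 7.997 in the second. The amplitude was 0.14 ± 0.03 (1.22-fold), the peak 8.43 ± 0.75 h (limma, adjusted p = 0.00851), and the cosine took up 60.8% of the variance. Arrays at 4 to 12 h lay between 7.87 and 8.20 (median 8.10), and those at 16 to 22 h between 7.69 and 7.99 (median 7.87), so the ranges overlapped. The 2 arrays at 16 h differed most: 7.99 at CT 40 against 7.69 at CT 64, both among the arrays that stood apart. Without the 5 arrays from CT 18 to CT 26, Tef missed the threshold with the same amplitude (0.14 ± 0.04, limma, adjusted p = 0.0529). The other 3 members were still called, among 665 of the 13956 genes tested.

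Nfil3, the repressor, moved the other way. It was lowest at CT 54 (7.28) and highest at CT 20 (8.08), with medians of 7.76 in the first cycle and 7.70 in the second. The amplitude was 0.27 ± 0.04 (1.46-fold), the peak 19.1 ± 0.50 h (limma, adjusted p = 0.000117), and the cosine took up 72.9% of the variance. At 16 to 22 h the 8 arrays lay between 7.73 and 8.08 (median 7.93), and at 4 to 12 h the 10 arrays between 7.28 and 7.79 (median 7.48). The windows overlapped at their edges, through CT 60 (12 h, 7.79) and CT 64 (16 h, 7.73). In the first cycle Nfil3 fell from 7.84 at CT 26 to 7.42 at CT 28, and in the second from 8.01 at CT 46 to 7.67 at CT 48. The largest fall thus came between 2 and 4 h in the first cycle and between 22 and 0 h in the second. The first-cycle fall began at CT 26, the last of 5 arrays with high anterior pituitary markers (given at the end of the results). Their summed intensity was 957 at CT 26 and 317 at CT 28. At 2 h Nfil3 differed by -0.22 between the cycles (second minus first). Whether those arrays moved the time of the largest fall was not tested.

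Because no time had a replicate, the closest measure of replicate error is the difference between the 2 arrays of the same circadian time, which came from different mice and different days in darkness. The SD of an array from these 12 pairs was 0.12 for Dbp, 0.10 for Tef, 0.10 for Hlf and 0.12 for Nfil3 in log2 units. Means of the 2 arrays at a time ranged over 0.91 for Dbp, which is 7.85 times that SD, 0.69 for Nfil3 (5.78 times), 0.40 for Hlf (3.96 times) and 0.34 for Tef (3.39 times). Ordered from the highest mean, the circadian times of Dbp ran 8, 6, 10, 12, 4, 2, 14, 0, 22, 20, 16 and 18 h, and those of Hlf 8, 12, 6, 4, 10, 0, 2, 14, 18, 22, 20 and 16 h. For Tef the order was 10, 8, 12, 6, 14, 2, 4, 22, 0, 20, 16 and 18 h, and for Nfil3 22, 20, 18, 14, 0, 16, 12, 2, 10, 4, 8 and 6 h. Neighbours in these orders were mostly closer than the SD: 9 of the 11 gaps for Dbp, 10 for Nfil3 and all 11 for Tef and for Hlf. The range of 12 sorted means is expected to exceed the SD of an array even without a rhythm, and small gaps follow from sorting. These ratios and gaps are thus a description, and the order of neighbours is not settled. A permutation of the 24 times gave p = 1e-05 for Dbp, Hlf and Nfil3, the smallest that 100000 permutations can give, and 7e-05 for Tef.

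**Figure D2:**
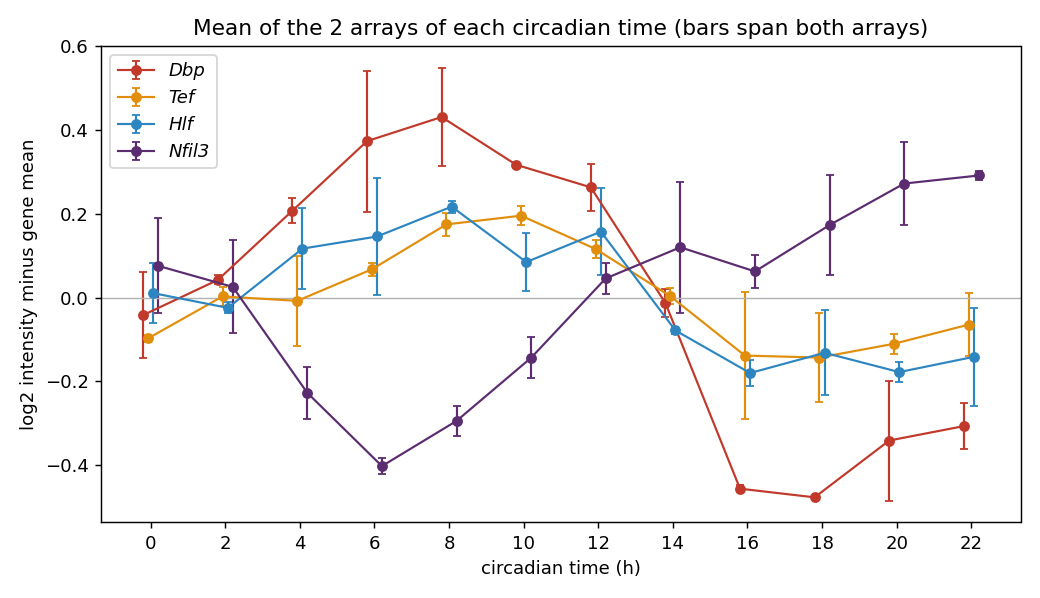
Log2 intensity minus the gene's mean against circadian time from 0 to 22 h for each factor, with points at the mean of the 2 arrays of a time and bars that span both arrays. Dbp, Hlf and Tef are high where Nfil3 is low, and the largest gaps between the 2 arrays are 0.34 for Dbp at 6 h, 0.30 for Tef at 16 h, 0.28 for Hlf at 6 h and 0.31 for Nfil3 at 14 h.

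The next question was whether the factors peak together or apart. The 3 activators could not be separated in time: Hlf peaked 0.04 h before Dbp (95% interval of Hlf minus Dbp -1.23 to 1.16 h), Tef 1.14 h after Dbp (-0.25 to 2.53 h), and Hlf minus Tef was -1.18 h (-2.65 to 0.30 h). All 3 intervals hold 0, and each still allows a lag of more than 1 h. Nfil3 peaked 11.8 h after Dbp (10.4 to 13.2 h), 11.8 h after Hlf (10.1 to 13.6 h) and 10.7 h after Tef (8.64 to 12.7 h). These 3 intervals exclude 0 and hold 12 h, the value of exact opposition. Intervals are from the covariance of the residuals of each pair over the 24 arrays, and 6 pairs were compared without adjustment. Within the first cycle alone Nfil3 minus Dbp was 12.3 h (10.3 to 14.4 h), and within the second alone 11.1 h (8.67 to 13.4 h). Without the arrays from CT 18 to CT 26 it was 10.9 h (9.19 to 12.6 h).

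**Figure D3:**
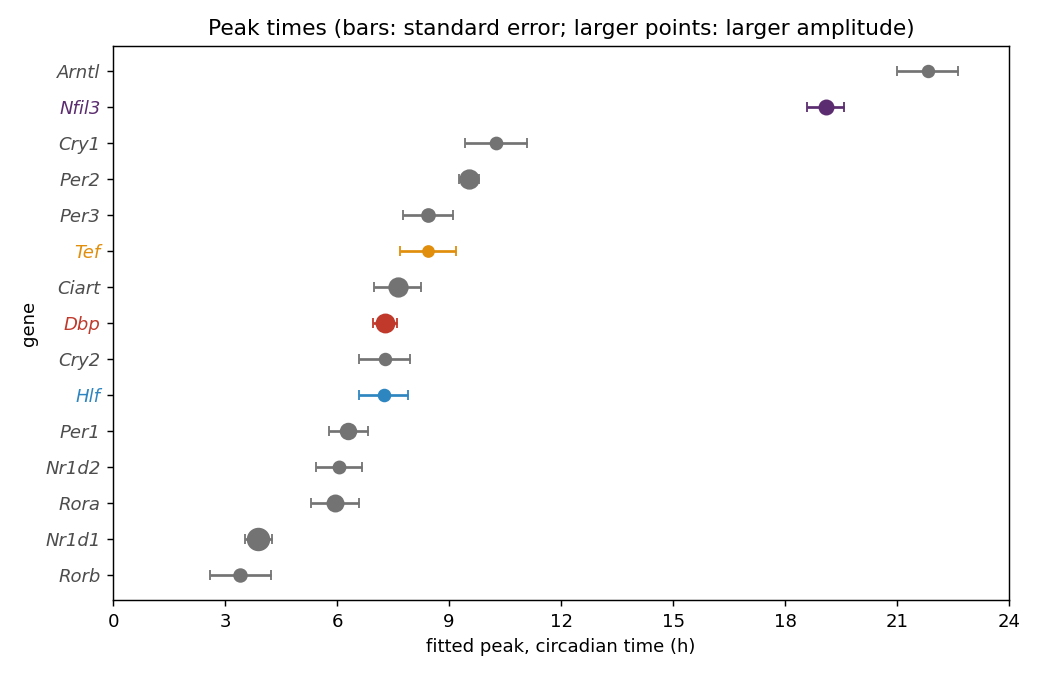
Fitted 24-h peak time in hours of circadian time for the 4 factors (coloured) and the 11 called loop genes (grey), with bars of 1 standard error and larger points for larger amplitudes. Dbp (7.29 h), Hlf (7.25 h) and Tef (8.43 h) lie among the Period and Cry genes, and Nfil3 (19.1 h) lies before Arntl (21.8 h).

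Over the 24 arrays Dbp had a larger amplitude than each of the others. Tef minus Dbp was -0.28 (95% interval -0.36 to -0.20) and Hlf minus Dbp was -0.25 (-0.33 to -0.18) in log2 units. Nfil3 minus Dbp was -0.15 (-0.28 to -0.03), an interval that holds 0 in the first cycle alone (-0.04, -0.22 to 0.15). Hlf and Tef were not separated (Hlf minus Tef 0.03, -0.03 to 0.10). Nfil3 had a larger amplitude than Tef by 0.13 (0.02 to 0.24), an interval that holds 0 without the arrays from CT 18 to CT 26 (0.11, -0.01 to 0.23) and in either cycle alone (first 0.16, -0.0023 to 0.32; second 0.10, -0.08 to 0.29). Nfil3 minus Hlf was 0.10 (-0.01 to 0.20), and its interval excludes 0 without CT 40, CT 62 and CT 64 (0.12, 0.01 to 0.22) and in the first cycle alone (0.17, 0.03 to 0.31).

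Activator and repressor can be set against each other on each array, as the mean of the 3 activators minus Nfil3, each centred on its own mean. This difference was lowest at CT 18 (-0.61) and highest at CT 54 (0.72). Its fitted amplitude was 0.52 ± 0.03 (2.06-fold from trough to peak) with a peak at 7.28 ± 0.25 h, given as a description. The difference was above 0 on both arrays at every time from 4 to 12 h and on neither array from 14 to 22 h. At 0 and 2 h it was above 0 in the second cycle and below in the first. The 0 is set by the centring, so a value above 0 does not mean more activator than repressor. The pattern follows from the opposite phases given above and is no separate result. Dbp, with the largest amplitude, weighs most in the activator mean.

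**Figure D4:**
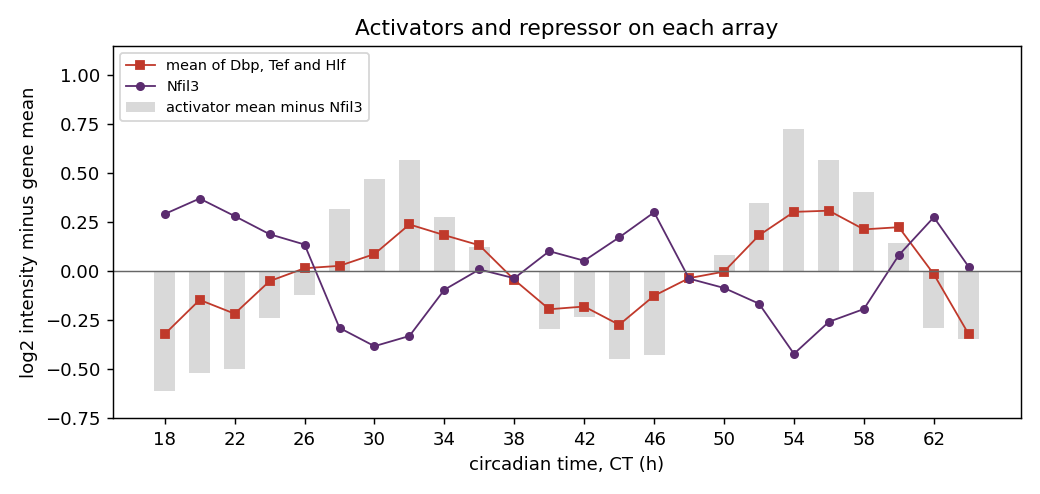
Centred log2 intensity against circadian time for the mean of Dbp, Tef and Hlf (squares) and for Nfil3 (circles), with their difference on each array as bars. The bars lie above 0 on 12 of 24 arrays, reach 0.72 at CT 54 and fall to -0.61 at CT 18.

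Values around the fitted rhythm also moved together. After the 24-h cosine was taken out, residuals correlated at r = 0.39 between Dbp and Hlf, 0.41 between Tef and Hlf, 0.25 between Dbp and Tef, 0.38 between Dbp and Nfil3, 0.38 between Tef and Nfil3 and 0.10 between Hlf and Nfil3, over 24 arrays. The raw values correlated at 0.83 for Dbp with Hlf and -0.73 for Dbp with Nfil3. Dbp and Nfil3 were thus opposite over the day, while their deviations from the fitted rhythm tended to the same side. Without CT 40, CT 62 and CT 64 the residual correlations of all pairs were lower. They were 0.36 for Dbp with Hlf, 0.38 for Tef with Hlf and 0.12 for Dbp with Tef. With Nfil3 they were 0.23 for Dbp, 0.34 for Tef and 0.08 for Hlf. No residual correlation was tested. The points share the tissue piece, the amplification and the array. The mean of 5 SCN markers that were not called rhythmic (Vip, Nms, Grp, Six6, Lhx1) also varied between arrays, from -0.58 at CT 64 to 0.47 at CT 60 around its mean. Its residuals correlated with those of Dbp (r = 0.63), Hlf (0.59), Tef (0.57) and Nfil3 (0.27). Residuals of other marker means moved with Dbp and Hlf too, at r = 0.52 and 0.43 for astrocytes and tanycytes, 0.47 and 0.50 for vessels and meninges, 0.42 and 0.40 for oligodendrocytes and 0.28 and 0.54 for microglia, and at 0.43 and 0.17 for pan-neuronal genes. The mean of olfactory and vomeronasal receptor genes, a measure of array background, stood at -0.44 with Dbp and -0.30 with Hlf. For Tef and Nfil3 the same measures lay between -0.18 and 0.18. Residuals of the anterior pituitary marker mean stood at 0.29 with Dbp, -0.24 with Hlf, -0.09 with Tef and 0.34 with Nfil3. For neighbouring hypothalamic neurons the values were -0.02 with Dbp, -0.28 with Hlf, -0.31 with Tef and 0.15 with Nfil3. The part of any of these in the residuals was not tested. A check added after the data had been seen took the mean of the 5 SCN markers as a covariate. The amplitudes were then 0.44 for Dbp, 0.18 for Hlf, 0.15 for Tef and 0.27 for Nfil3. All 4 were called, among 1240 of the 13956 genes tested.

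The study sampled a second day in darkness, which allows the cycles to be compared. No member was called for a change in level between the cycles (limma, moderated test of a cycle term), nor was any gene of the 13956 (0%), with 1216 at an unadjusted p under 0.05. Second minus first cycle was 0.05 ± 0.05 for Dbp, 0.08 ± 0.04 for Hlf, 0.01 ± 0.04 for Tef and -0.04 ± 0.05 for Nfil3, with adjusted p from 0.588 to 0.978. Hlf had the smallest unadjusted p (0.0577). Without the arrays from CT 18 to CT 26 the Nfil3 difference turned to 0.06 ± 0.06 (limma, adjusted p = 0.699), that of Dbp was 0.13 ± 0.06 (unadjusted p = 0.0374, adjusted p = 0.403) and that of Hlf 0.11 ± 0.05 (0.0374 and 0.403). With the pituitary markers described at the end as a covariate the Dbp difference was 0.14 ± 0.06 (unadjusted p = 0.0181, adjusted p = 0.412).

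The rhythm itself was not called different between the cycles for any member, nor for any gene tested (0%, limma F test of the interaction terms, with 338 genes at an unadjusted p under 0.05). The change of Dbp was a vector of size 0.15 ± 0.07 (unadjusted p = 0.0987) and that of Tef 0.07 ± 0.06 (0.523). Without the arrays from CT 18 to CT 26 these were 0.13 ± 0.09 for Dbp and 0.18 ± 0.10 for Tef (unadjusted p = 0.144, adjusted p = 0.431), so the members have no settled order in this measure. Fitted in each cycle alone, the amplitude of Dbp was 0.35 ± 0.05 in the first cycle and 0.51 ± 0.05 in the second. The Dbp peak was nearly the same, at 7.33 and 7.26 h. Nfil3 went from 0.32 ± 0.05 to 0.24 ± 0.05 and its peak from 19.7 to 18.3 h (change vector 0.12 ± 0.07, unadjusted p = 0.238). Hlf had amplitudes of 0.15 and 0.21 and Tef of 0.16 and 0.14. These values describe 12 arrays each and are not shown to differ between the cycles.

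In each cycle alone, with 9 residual degrees of freedom, fewer members passed. In the first cycle 2 of 4 were called, Dbp (limma, adjusted p = 0.0245) and Nfil3 (0.0380), against 0.115% of all genes. In the second cycle 1 of 4 was called, Dbp (0.000156), against 0.58% of all genes, while Hlf (adjusted p = 0.0642), Nfil3 (0.0746) and Tef (0.168) were not. All 4 had an unadjusted p under 0.05 by limma in both cycles. So did 1415 of the 13956 genes in the first cycle and 2643 in the second. The peaks of the 4 factors lay at 7.09 to 9.20 h for the activators and 18.3 to 19.7 h for Nfil3.

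**Figure D5:**
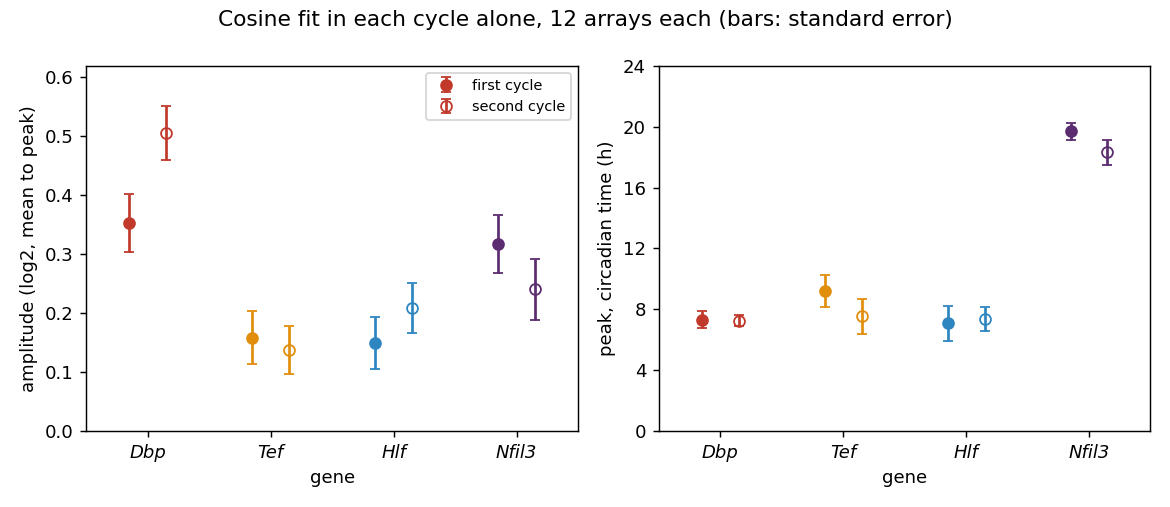
Amplitude in log2 units (left) and peak time in hours (right) with standard errors, fitted to the 12 arrays of the first and of the second cycle separately. Dbp has amplitudes of 0.35 and 0.51 at peaks of 7.33 and 7.26 h, and Nfil3 0.32 and 0.24 at 19.7 and 18.3 h.

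The shape of the daily curve was tested by adding 12-h terms. No member passed, against 0.0358% of all genes (5 genes, limma F test). Nfil3 had the largest 12-h amplitude (0.10 ± 0.03, unadjusted p = 0.0137, adjusted p = 0.155), followed by Dbp (0.08 ± 0.03, 0.0520 and 0.232), Tef (0.06 ± 0.03) and Hlf (0.03 ± 0.03). The period that left the smallest residual was 24.1 h for Dbp (95% range 22.9 to 25.5 h), 24.0 h for Hlf (22 to 26.5 h), 22.9 h for Tef (21.1 to 25 h) and 22.6 h for Nfil3 (21.1 to 24.2 h). All 4 ranges hold 24 h, and with 2 cycles they are wide.

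The factors were then placed among the genes of the loops that drive them. Of 14 tested genes of the E-box and ROR element loops 11 were called for the 24-h rhythm, with a median amplitude over the 14 of 0.20 against 0.07 over all tested genes. Dbp peaked 3.39 h after Nr1d1 (95% interval 2.51 to 4.28 h), which encodes the repressor REV-ERBα, and before Per2 (Dbp minus Per2 -2.25 h, -2.93 to -1.57 h), which encodes a repressor of CLOCK and ARNTL. Per1, another gene that CLOCK and ARNTL drive, was not separated from Dbp (Dbp minus Per1 0.99 h, -0.03 to 2.00 h). Tef, by contrast, followed Per1 by 2.13 h (0.15 to 4.10 h) and was not separated from Per2 (-1.11 h, -2.52 to 0.31 h). Hlf peaked before Per2 (Hlf minus Per2 -2.29 h, -3.47 to -1.10 h) and followed Nr1d1 by 3.36 h (2.07 to 4.64 h). Of the 11 called loop genes, the interval of the peak difference held 0 for 6 with Dbp, the same number with Hlf, 5 with Tef and 0 with Nfil3, among 44 unadjusted intervals.

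Nfil3 peaked 15.2 h after Nr1d1 (13.9 to 16.5 h), which is later than exact opposition. It peaked before Arntl (Nfil3 minus Arntl -2.73 h, -4.39 to -1.08 h), another gene known to be repressed by REV-ERB proteins. Its amplitude of 0.27 stood beside 0.17 ± 0.04 for Arntl. The intervals of Nfil3 held 12 h with 6 loop genes, Cry2, Per1, Per3, Ciart, Nr1d2 and Rora.

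Clock genes known to carry D-boxes were all called, 8 of 8, with a median amplitude of 0.28. Of these 3 peaked before 6 h and 5 between 6 and 12 h. They included Nr1d1 (amplitude 0.57 ± 0.05, peak 3.89 h), Per2 (0.45 ± 0.03, 9.53 h), Per1 (0.33 ± 0.05, 6.30 h) and Nr1d2 (0.19 ± 0.03, 6.04 h). Most of these genes also carry E-boxes, so the list is not one of D-box targets alone. The genes just named were also counted among the loop genes above, so the calls of these lists are not separate results. A second list held genes known as targets of these factors in liver, kidney, intestine or T cells. Of 11 listed, 9 had a probe set and 3 passed the filter on low values (Pdxk, Alas1, Abcb1a). None of the 3 was called (limma, 0 also at an unadjusted p under 0.05), and their median amplitude was 0.05 against 0.07 over all genes. With 7.65% of all genes called, 0 of 3 is near the background, and the lists were not tested against each other. Abcb1a, a drug efflux pump, had the smallest p of them (amplitude 0.11 ± 0.04, adjusted p = 0.215). Of 5 tested C/EBP relatives, bZIP factors that can bind similar sites, 1 was called, Cebpa (0.14 ± 0.03, peak 16.4 h, adjusted p = 0.0286).

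The genes whose values followed each factor most closely over the 24 arrays are given as a description. For Dbp they were Slc2a13 (r = 0.89), an inositol transporter, Usp36 (0.89), a ubiquitin protease, Chrna3 (0.88), a nicotinic receptor subunit, Per1 (0.85) and Fbxl21 (0.85), an F-box protein of cryptochrome turnover. The most opposite were Chordc1 (-0.84), a partner of HSP90, Iqub (-0.81) and Zmym1 (-0.79). For Hlf they were Slc2a13 (0.84), Tcf3 (0.80), Rfx5 (0.80), Hmgb3 (0.79) and Avp (0.79), the neuropeptide vasopressin of the SCN shell, and the most opposite were Mns1 (-0.81), Iqub (-0.80) and Chordc1 (-0.79). Dbp and Hlf thus had Slc2a13 in common at 1 end and Iqub and Chordc1 at the other.

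Tef had lower correlations, with Ctbp1 (0.76), a corepressor, Trpt1 (0.76), Xpa (0.75), Strip2 (0.75) and Per2 (0.74) highest and Zmym1 (-0.79), Stip1 (-0.77), an HSP70 and HSP90 cochaperone, and 1500035N22Rik (-0.76) lowest. For Nfil3 the highest were Prr15 (0.78), Vit (0.76), Trmt9b (0.76), Iqub (0.75) and Mrpl41 (0.75), and the lowest Hmgb3 (-0.79), Nr1d2 (-0.77) and Creb3l1 (-0.74). Iqub, opposite to Dbp and Hlf, was among the 5 nearest to Nfil3, and Hmgb3 was near Hlf and opposite to Nfil3. When CT 40, CT 62 and CT 64 were left out, 4 of these 5 nearest genes were again among the 5 nearest for Dbp and for Hlf, 2 for Tef and 1 for Nfil3. For Nfil3 that gene was Prr15, so Iqub was no longer among its 5 nearest. Among the 3 most opposite, Zmym1 dropped out for Dbp, Zmym1 and 1500035N22Rik for Tef, Chordc1 for Hlf and Creb3l1 for Nfil3. All points share the 24 arrays and their daily rhythm.

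The tissue and the arrays were checked against fixed markers. All 9 SCN markers were above the filter, and 4 were called rhythmic (Rgs16, Prok2, Rorb and Avp), as were 4 of 6 pan-neuronal markers, which peaked between 1.57 and 3.68 h, and 1 of 6 vessel and meningeal markers. Of neighbouring hypothalamic neurons 0 of 10 were called (1 at an unadjusted p under 0.05 by limma), of oligodendrocytes 0 of 7 (1), of astrocytes and tanycytes 0 of 7 (3), of microglia 0 of 6 (1) and of the anterior pituitary 0 of 3 (2). Summed linear intensity of 6 anterior pituitary markers was 832 to 5651 on the 5 arrays from CT 18 to CT 26 and 198 to 524 on the other 19. These 5 arrays hold the highest Nfil3 values of the first cycle (7.84 to 8.08). At their circadian times Nfil3 differed between the cycles (second minus first) by -0.24 at 18 h, -0.20 at 20 h, 0.02 at 22 h, -0.23 at 0 h and -0.22 at 2 h. With those markers as a covariate the Nfil3 amplitude was 0.25 ± 0.04 and its peak lay at 18.8 h (limma, adjusted p = 0.00105), and without the 5 arrays 0.25 ± 0.04 and 18.3 h (0.00315). The arrays at CT 40, CT 62 and CT 64, at 14 and 16 h, had a narrower spread of values (interquartile range 2.48 to 2.67 against 2.72 to 2.90) and a higher mean of 1194 olfactory and vomeronasal receptor genes (0.16 to 0.34 above the series mean against -0.15 to 0.04). Without these arrays the amplitudes were 0.41 for Dbp, 0.17 for Hlf, 0.14 for Tef and 0.29 for Nfil3. All 4 were called, among 679 of the 13956 genes tested.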

How the data were processed

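Total SCN RNA of 3 mice per time was amplified and biotin-labelled with NuGen kits and hybridised to 24 Affymetrix mouse gene arrays, per the labels' protocols. The authors deposited log2 intensities per probe set, made with RMA 1.3.1.187 in Affymetrix Expression Console, per the submitters' processing notes. Background and summarisation settings and the genome build are not given in the sources used here. No further normalisation was applied. RMA and hybridisation compress fold changes, and the number of arrays limits the precision.

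Of 35556 probe sets the platform annotation gave 21789 a single symbol, 1621 several, and 12146 were not listed. Of the 21789, Entrez identifiers of 21698 matched RefSeq (GRCm38.p6), and 0 symbols were updated. For each of 19938 genes the probe set of highest mean was used. The 13956 genes whose mean reached the 30th percentile of gene means (log2 5.52) were tested. All 4 factors passed.

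Models were fitted in R 4.3.3 with limma 3.58.1 (lmFit and eBayes). With 24 arrays the 24-h model had 21 residual degrees of freedom. The models of level change, rhythm change and 12-h rhythm had 20, 18 and 19. The test of level change was two-sided, and the others were F tests, which take no direction. Arrays were assigned to cycles by their labelled time. Since no time has a replicate, the tests set the fitted terms against the spread around the fit, and each pool of 3 mice is 1 sample. That spread also holds any departure from the fitted curve, so it is not replicate error alone. Intervals of peak and amplitude differences used the delta method. Fits were tested on simulated data. Tables and figures used Python 3.11.15, NumPy 2.4.6, SciPy 1.17.1, pandas 2.3.3 and matplotlib 3.10.9. Named genes were the 4 factors, of each list up to 4 called genes of smallest adjusted p (or the 1 of smallest p where none was called), and per factor the 5 tested genes of highest and 3 of lowest correlation. The factors and lists were chosen with earlier results of these data known. Alternatives covered the filter, normalisation, covariates, array weights and arrays left out.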

Additional observations from a re-analysis of the deposited data

How the results depend on the processing

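With 1 array per time, no estimate has a replicate, and members of small amplitude are the least certain. The 24-h call held for all 4 factors in each of 24 fits without 1 array (amplitude of Dbp 0.42 to 0.45, Hlf 0.17 to 0.19, Nfil3 0.26 to 0.29, Tef 0.13 to 0.16). It held under the other alternatives, with adjusted p from 0.000788 to 0.0529 for Tef, except that Tef was lost without the arrays from CT 18 to CT 26 (amplitude 0.14, adjusted p = 0.0529), an alternative added after seeing the data like the SCN marker covariate and the single cycles without arrays that stood apart. None of the 4 was called for a level change, a rhythm change or a 12-h rhythm under any alternative run.

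Over all genes the count of 24-h calls (1067) was 679 without CT 40, CT 62 and CT 64, 665 without CT 18 to CT 26, 534 with the receptor gene background as a covariate, 3355 with oligodendrocyte markers as a covariate, 1741 with a trended prior and array weights, and 704 to 1440 without 1 array (704 without CT 28). Level changes (0) became 66 with the receptor background and 6 with a trended prior and weights, and 0 to 1 without 1 array. The 12-h count (5) was 8 above the 50th percentile and with median centring, 2 with quantile normalisation, 13 with a trended prior and weights, and 0 with no filter, without CT 40, CT 62 and CT 64, without CT 18 to CT 26, and with the receptor, oligodendrocyte, pituitary or SCN marker covariate. In the first cycle alone 80 genes in place of 16 were called without CT 40, and in the second 28 in place of 81 without CT 62 and CT 64.

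The level change of Tef (0.01) turned to -0.0028 with quantile normalisation, -0.0024 with the pituitary covariate and -0.0051 with the SCN marker covariate, and ran from -0.0095 to 0.031 without 1 array. That of Nfil3 (-0.04) turned to 0.0087 with the pituitary covariate and 0.059 without CT 18 to CT 26. Hlf minus Dbp in peak time (-0.04 h) turned to 0.17 h without CT 40, CT 62 and CT 64, 0.10 h with the receptor background and 0.11 h in the second cycle alone. The causes were not tested. The labels give no replicate numbers, so arrays were paired by circadian time. With that time as a block, no factor was called for a level change (limma, adjusted p of Hlf 0.520).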
